A study of Mus musculus with 4 samples.

Results

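The genes described here are the replication-dependent histone genes of the mouse, which lie in clusters and encode the core histones H2A, H2B, H3 and H4 and the linker histone H1. They were taken as every gene whose symbol in the GRCm38-era annotation starts with Hist1h, Hist2h, Hist3h or Hist4h. This rule found 66 of the 21957 genes of the expression table, with 6 for H1, 19 for H2A, 16 for H2B, 12 for H3 and 13 for H4. The rule reads symbols and no measured value, although the set was picked for description with earlier results of these data known. Another 4 annotated symbols of this form (Hist1h2aj, Hist1h2bh, Hist1h2bm and Hist3h2bb-ps) were not analysed here.

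The study cultured mouse oocytes with tubastatin A (TubA), a small-molecule inhibitor of the cytoplasmic deacetylase HDAC6, to ask what the inhibitor does to meiotic maturation and to the transcripts of the oocyte. Fully grown oocytes came from B6D2F1 females, the first cross of C57BL/6 and DBA, aged 6 to 8 weeks and primed with PMSG, a gonadotropin that stimulates follicle growth, and the surrounding cumulus cells were stripped with hyaluronidase. There were 4 libraries. GV oocytes (germinal vesicle stage, the resting nucleus before meiosis resumes) were collected at 0 h with no treatment, MII oocytes (metaphase of the second meiotic division) after 12 h of culture with no TubA and after release of the polar body, and the oocytes named TubA-10 and TubA-20 spent the same 12 h in 10 µM and 20 µM TubA. The doses are those of the sample titles, since the treatment field gives 20 µM for TubA-10 and 11 µM for TubA-20. Each library pooled 100 oocytes, and each condition had 1 library. There is therefore no replicate check of any difference below, and no p-value or error is given. A difference was counted when it passed 2-fold on the scale of FPKM + 1 (fragments per kilobase of transcript scaled to the mapped fragments of the library, a level per length).

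Replication-dependent histone mRNAs supply new histones while DNA is copied. They are the animal mRNAs that normally end without a poly(A) tail. Their 3′ end is cut just after a short stem-loop, which is bound by the stem-loop binding protein SLBP, and the cut is guided by the U7 snRNP. Replacement histones are made outside S phase from ordinary polyadenylated mRNAs. The growing oocyte does not replicate DNA, yet it stores histones and histone mRNA for the divisions of the embryo. The libraries were made from RNA enriched with oligo(dT), which favours a histone mRNA that carries a tail or a run of A. How much RNA without a tail came through the selection was not measured. The amount of a histone mRNA and the length of its tail cannot be told apart in these values. Nor can a lower level in every oocyte be told apart from fewer oocytes, or fewer other cells in the pool, that hold the transcript.

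The stem-loop is the feature that sets these genes apart, and it was looked for in the annotated transcripts as a perfect stem of 6 base pairs, of the form GGNNCT paired with AGNNCC, around any loop of 4 bases. It was present after the coding sequence in 44 of the 66 genes (66.7%) and somewhere in the transcripts of 158 of the 21728 other genes of the table (0.727%). It began 21 bases after the stop codon in Hist2h2ac and 58 bases after it in Hist2h2aa1, which were the closest and the farthest. The stem GGCTCT with the loop TTTC was found in 24 genes, GGCCCT with TTTC in 7 and GGCTCT with TTTA in 6. The stem-loops of genes whose levels differed most between the libraries are shown here, because they are the ends at which an mRNA without a tail would have been cut. They are given 5′ to 3′ on the strand of the gene, with the stem in capitals and the loop and 5 bases on each side in lower case, from the GENCODE M21 transcripts (GRCm38).
Hist1h4h (chr13:23531453-23531478, plus strand): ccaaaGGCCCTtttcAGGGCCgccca
Hist1h4i (chr13:22040961-22040986, minus strand): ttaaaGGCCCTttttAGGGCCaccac
Hist1h4a (chr13:23760795-23760820, minus strand): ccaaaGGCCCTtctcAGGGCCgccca
Hist1h2bk (chr13:22036295-22036320, plus strand): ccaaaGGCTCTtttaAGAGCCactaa
Hist3h2ba (chr11:58949344-58949369, plus strand): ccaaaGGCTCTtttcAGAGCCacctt
Hist1h3g (chr13:23535884-23535909, plus strand): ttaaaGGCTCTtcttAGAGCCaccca
The H4 genes in this set shared the stem GGCCCT and differed in the loop, while the H2B and H3 genes shared the stem GGCTCT.

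Most clustered histone genes were at or near 0. The table listed 29 of the 66 genes at 0 in all 4 libraries, 37 above 0 in at least 1 library and 21 above 0 in every library. Of all 21957 genes, 16870 were above 0 in at least 1 library. A mean of at least 1 FPKM over the 4 libraries was reached by 18 of the 66, beside 10199 of the 21957. The highest single value among the other histone genes was 1.47 FPKM. The genes next to this limit were Hist1h1d and Hist1h3f above it, with means of 1.06 and 1.13 FPKM, and Hist2h4 and Hist1h2bj below it, with means of 0.844 and 0.709 FPKM. Over all 66 genes the FPKM summed to 369 (GV), 372 (MII), 341 (TubA-10) and 235 (TubA-20), which was between 0.0374% and 0.0655% of the FPKM of a library. The genes that carry most of this level are few, as the plot of the members by library shows.

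**Figure D1:**
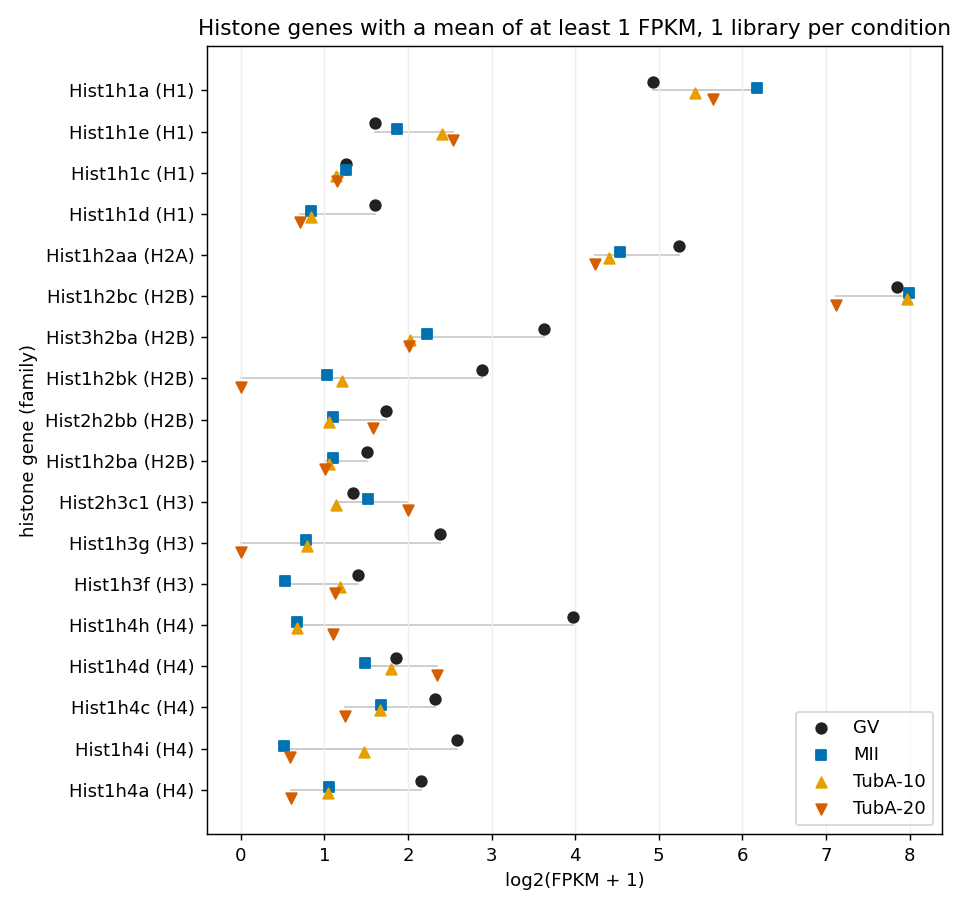
Level of the 18 histone genes with a mean of at least 1 FPKM in each of the 4 libraries, as log2(FPKM + 1) on the horizontal axis; each point is 1 library and there are no error bars. Hist1h2bc lies far to the right of the others, and the GV library is the highest for 13 of the 18 genes, 7 of which passed the limit only through GV; among the 11 that passed it in the cultured libraries GV is the highest for 6 (54.5%, beside 34.9% of all such genes).

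The H2B gene Hist1h2bc (chr13:23684199-23692908, plus strand) had the highest level of all. It stood at 230.4 FPKM (GV), 254 (MII), 250.4 (TubA-10) and 138 (TubA-20), which placed it 550th, 397th, 435th and 871st among the 21957 genes. GV, MII and TubA-10 lay close together and TubA-20 was the lowest, with a log2 change of -0.87 against MII and -0.73 against GV. Neither passed 2-fold, although the change against MII became -1.01 when the libraries were scaled to equal FPKM sums and -1.03 when they were scaled to equal Gapdh. Its annotated model differs from the short, intronless model that is usual for these genes. It has 2 exons, the first at 23684199-23684621 and the second at 23692176-23692908, and the splice follows the stop codon by 9 bases. The spliced transcript of 1156 bases holds no stem-loop, and a polyadenylation signal lies in the 742 bases after the coding sequence. The coding sequence of Hist1h2bc is 99.5% identical to that of Hist1h2bq, so fragments from the coding part can be shared with near copies. The remaining 15 H2B genes together summed to 23.4 FPKM in GV and to between 7.34 and 8.13 FPKM in the other libraries.

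Hist3h2ba on chromosome 11 (58948920-58949533) was the second H2B gene, at 11.3 FPKM (GV), 3.68 (MII), 3.06 (TubA-10) and 3.03 (TubA-20). GV stood apart and the 3 cultured libraries were alike, with log2 changes against GV of -1.40, -1.60 and -1.61. Hist1h2bk was at 6.37, 1.05 and 1.31 FPKM in GV, MII and TubA-10 and was listed at 0 in TubA-20. Hist2h2bb, whose model shares its strand with the overlapping Gm42743, was at 2.34, 1.14, 1.07 and 2.0 FPKM in the same order of the libraries (GV, MII, TubA-10, TubA-20). Its GV and TubA-20 values were the higher pair. In these libraries the lowest values above 0 of short histone genes were also higher (0.488 and 0.495 FPKM, beside 0.254 in MII and 0.267 in TubA-10). A few fragments could thus give this pair. Hist1h2bj was at 0.992, 0.269, 0.536 and 1.04 FPKM, values that a few fragments could give. Of the 16 H2B genes 6 were at 0 throughout, and Hist2h2be was among them although its model is long and holds a polyadenylation signal.

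Hist1h2aa and Hist1h2ba encode TH2A and TH2B, variants known from testis and oocyte that are often named apart from the somatic replication-dependent set. They lie head to head on chromosome 13, with 305 bases between the 2 annotated models. Hist1h2aa (23934462-23934851, plus strand) was the leading H2A gene, at 36.9 FPKM (GV), 22.2 (MII), 20.3 (TubA-10) and 17.8 (TubA-20). It gave between 93.1% and 96.3% of the summed level of the 19 H2A genes. Hist1h2ba (23933773-23934156, minus strand) was at 1.85, 1.15, 1.07 and 1.01 FPKM. Both genes were highest in GV and lowest in TubA-20. For Hist1h2ba, however, the cultured libraries lay between 1.01 and 1.15 FPKM in a model of 384 bases. A few fragments could give these values, so their order carries no weight. Their log2 changes against GV were -0.71 and -0.41 (MII), -0.84 and -0.46 (TubA-10), and -1.01 and -0.50 (TubA-20). The change of Hist1h2aa in TubA-20 was just past 2-fold and was -0.87 with equal upper quartiles and -0.94 with equal Gapdh, on the other side of that limit. Both models end at the stop codon, so that they hold no stem-loop and no 3′ untranslated part, and fragments from beyond the stop codon could not be assigned to them.

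The region between these genes is shown because they share it. The RefSeq promoter windows of the pair (250 bases before to 50 after each start, GRCm38.p6) have 220 of their 300 bases in common. The 250 bases before the start of Hist1h2aa hold 4 CCAAT boxes (CCAAT, in 1 case on the strand of the gene and otherwise as ATTGG), 2 TATA boxes (TATAAA, of which the opposite one points to Hist1h2ba), 1 octamer (ATTTGCAT, on the opposite strand) and 1 H1 box (AAACACA). These are the letters in capitals.
Hist1h2aa (chr13:23934187-23934436, plus strand): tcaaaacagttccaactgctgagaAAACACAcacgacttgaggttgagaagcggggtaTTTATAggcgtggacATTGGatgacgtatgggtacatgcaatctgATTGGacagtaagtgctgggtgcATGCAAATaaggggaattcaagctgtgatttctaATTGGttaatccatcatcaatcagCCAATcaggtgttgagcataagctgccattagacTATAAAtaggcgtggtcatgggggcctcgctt
The TATA box on the strand of Hist1h2aa starts 32 bases before its start site, and the CCAAT box nearest to it starts 66 bases before. The remaining H2A genes summed to only 2.73 FPKM (GV), 0.853 (MII), 1.33 (TubA-10) and 0.802 (TubA-20). Hist3h2a, which overlaps Trim17 on the same strand, was at 1.47, 0.205, 0.713 and 0.237 FPKM in that order. Hist1h2ac was above 0 only in MII (0.647) and TubA-10 (0.329), Hist2h2ac only in TubA-10 (0.287) and TubA-20 (0.565), and Hist1h2ab (0.639) and Hist1h2ag (0.625) only in GV. The other 13 H2A genes had no value above 0 in any library.

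The summed level of the 6 linker histone genes was higher in each cultured library than in GV, and it followed its leading gene. Hist1h1a (chr13:23763666-23764406, plus strand) was at 29.5 FPKM (GV), 71.5 (MII), 42.3 (TubA-10) and 49.3 (TubA-20). GV was the lowest and MII the highest, with both TubA libraries between them. The log2 change of Hist1h1a was 1.25 in MII against GV, the only gene of the 18 more than 2-fold higher in that comparison. It was 0.51 and 0.72 for TubA-10 and TubA-20 against GV, and -0.74 and -0.53 for the same libraries against MII. Its annotated model ends inside the stem-loop, before the last base of the stem, and it has no near copy, since the most similar member, Hist1h1d, shares 73.6% of the coding sequence. The 250 bases before its start hold 1 CCAAT box and 1 TATA box, both on the strand of the gene and in capitals here. They are shown beside the region of the TH2A and TH2B pair, whose levels had the opposite order of GV and the cultured libraries.
Hist1h1a (chr13:23763418-23763667, plus strand): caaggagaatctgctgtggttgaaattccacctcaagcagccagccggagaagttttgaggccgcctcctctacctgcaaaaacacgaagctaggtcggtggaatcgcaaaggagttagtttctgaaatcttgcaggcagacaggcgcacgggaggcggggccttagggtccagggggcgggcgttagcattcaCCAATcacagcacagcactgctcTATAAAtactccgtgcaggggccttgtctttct
The exact H1 box AAACACA, found in 5 of the 6 H1 promoter windows and in 7.2% of all 32851, was not among the letters of this one.

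Hist1h1e was at 2.05 FPKM (GV), 2.65 (MII), 4.28 (TubA-10) and 4.8 (TubA-20), so that both TubA libraries lay above GV and MII. It shares its strand with the overlapping Hist1h2be and Gm11398. Its log2 changes against GV, 0.79 in TubA-10 and 0.93 in TubA-20, did not pass 2-fold, and they became 1.03 and 1.19 with a pseudocount of 0.1 FPKM. Hist1h1c, in contrast, was at 1.40, 1.39, 1.19 and 1.22 FPKM, within a narrow range. Hist1h1d was at 2.04 FPKM in GV and at 0.785, 0.788 and 0.635 in MII, TubA-10 and TubA-20. Hist1h1b was above 0 only in GV (0.248) and MII (0.141), and the testis-specific Hist1h1t only in TubA-10 (0.124) and TubA-20 (0.239).

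The 13 H4 genes encode an identical or nearly identical protein. The table listed 6 of them at 0 in all libraries, 5 had their highest level in GV (Hist1h4h, Hist1h4i, Hist1h4a, Hist1h4c and Hist4h4), and Hist1h4d and Hist2h4 did not. Hist1h4h, Hist1h4i and Hist1h4a reached a mean of at least 1 FPKM only through their value in GV, so that they had to be lower elsewhere and no count over the H4 genes is drawn from them. Hist1h4h (chr13:23531050-23531519) was at 14.7 FPKM (GV), 0.594 (MII), 0.595 (TubA-10) and 1.14 (TubA-20). GV was far above the other libraries, and the log2 changes of -3.30, -3.30 and -2.88 were the largest of any member that was above 0 in both libraries compared. Hist1h4i was at 5.0, 0.428, 1.78 and 0.508 FPKM, again with GV highest, and with TubA-10 between GV and the remaining pair. Hist1h4a was at 3.45, 1.07, 1.07 and 0.514 FPKM and Hist1h4c at 3.99, 2.2, 2.16 and 1.38 FPKM. Both were highest in GV and lowest in TubA-20. Hist1h4d departed from this order, at 2.62, 1.80, 2.48 and 4.08 FPKM, with TubA-20 highest. Hist2h4 was nearly level, at 0.893, 0.901, 0.823 and 0.760 FPKM. The summed level of the 13 H4 genes was 30.9 FPKM in GV and 7.05, 9.05 and 8.6 FPKM in MII, TubA-10 and TubA-20. With Hist1h4h left out the sums were 16.2, 6.46, 8.45 and 7.46 FPKM, so that GV remained the highest.

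The H3 genes were low throughout, with a summed level of 9.54 FPKM in GV and 3.95, 3.87 and 4.68 FPKM in MII, TubA-10 and TubA-20. Hist1h3g was at 4.23, 0.722 and 0.731 FPKM in GV, MII and TubA-10 and was listed at 0 in TubA-20. Hist2h3c1 was at 1.53, 1.87, 1.20 and 3.01 FPKM, with TubA-20 highest. Its coding sequence is identical to that of Hist2h3c2 and it overlaps Gm20634 on the same strand, so its value may hold fragments of either. Hist1h3f was at 1.64, 0.441, 1.28 and 1.18 FPKM, with MII the lowest. Hist1h3a (0.952, 0.254, 0 and 0.495 FPKM), Hist1h3e (0.546, 0.222, 0.320 and 0) and Hist2h3b (0, 0.330, 0.343 and 0) had values that a few fragments could give. Over the 5 families, the sums of H2A, H3 and H4 were higher in GV than in any cultured library, that of H1 was lower, and that of H2B followed Hist1h2bc. These orders against GV held under each of the 4 scalings tried, except for H2B in MII and TubA-10, whose log2 change lay between -0.08 and 0.27 in MII and between -0.12 and 0.29 in TubA-10.

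**Figure D2:**
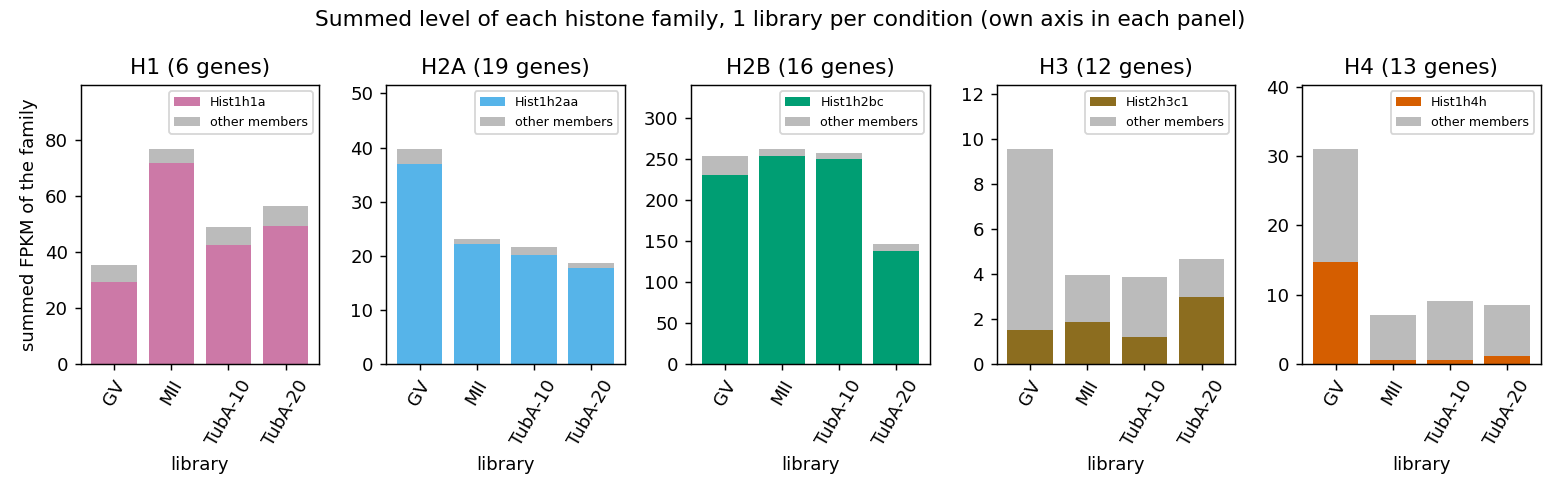
Summed FPKM of the genes of each family (vertical axis, starting at 0 and different in each panel) in the 4 libraries, split into the leading gene and the other members. H2A, H3 and H4 are highest in GV (39.7, 9.54 and 30.9 FPKM), H1 is highest in MII (76.5 FPKM), and H2B is lowest in TubA-20 (147 FPKM).

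The comparison of MII with GV asks what changes when oocytes mature without the inhibitor. Of the 18 genes with a mean of at least 1 FPKM, 6 were more than 2-fold lower in MII (Hist1h2bk, Hist1h3g, Hist1h4a, Hist1h4h, Hist1h4i and Hist3h2ba), where 17.2% of the 10199 genes tested were. Only Hist1h1a was more than 2-fold higher, where 6.5% of all genes were. The median log2 change of the 18 genes was -0.67, beside 0.07 for all genes tested. These counts have to be read with the filter in mind, because 7 of the 18 genes, among them 5 of the 6 lower ones, had a mean of at least 1 FPKM only through their value in GV. Among the 11 genes with a mean of at least 1 FPKM over the 3 cultured libraries, Hist3h2ba alone was more than 2-fold lower, where 16.4% of 10022 genes were, and the median was -0.37 beside 0.11. Over all 66 genes, with no filter, 7 were more than 2-fold lower in MII and 1 was higher, where 8.34% and 3.05% of all 21957 genes were, and the median was 0. GV was the highest library for 24 of the 37 genes above 0 anywhere (64.9%), beside 36.8% of the 16870 such genes of the table. Some of these 24, such as Hist1h2ab, Hist1h2ag and Hist1h3d, were above 0 in GV alone, and 11 of the 24 had a mean under 1 FPKM. In short histone genes the lowest value above 0 was 0.488 FPKM in GV, beside 0.254 in MII and 0.267 in TubA-10. A few fragments can thus make GV the highest library for such genes.

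The TubA libraries were compared with the same GV library, so these comparisons are not independent of the first. For TubA-10 the same 6 genes were more than 2-fold lower than in GV, where 11.5% of all genes were, and none of the 18 was more than 2-fold higher, where 1.53% were. In TubA-20 8 genes were more than 2-fold lower, where 23.9% of all genes were. They were the same 6 with Hist1h2aa and Hist1h4c, and none was more than 2-fold higher, where 16.2% were. The median log2 changes were -0.67 (TubA-10) and -0.81 (TubA-20), beside 0.10 and 0.12 for all genes. With the filter on the cultured libraries, 1 of 11 genes was lower in TubA-10 (Hist3h2ba), where 10.8% of all genes were, and 3 of 11 in TubA-20 (Hist1h2aa, Hist1h4c and Hist3h2ba), where 22.8% were. The medians of these 11 genes were -0.20 and -0.15, beside 0.13 and 0.16 for all genes. The change of Hist1h4c in TubA-20, -1.07, was -0.97 with equal upper quartiles.

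**Figure D3:**
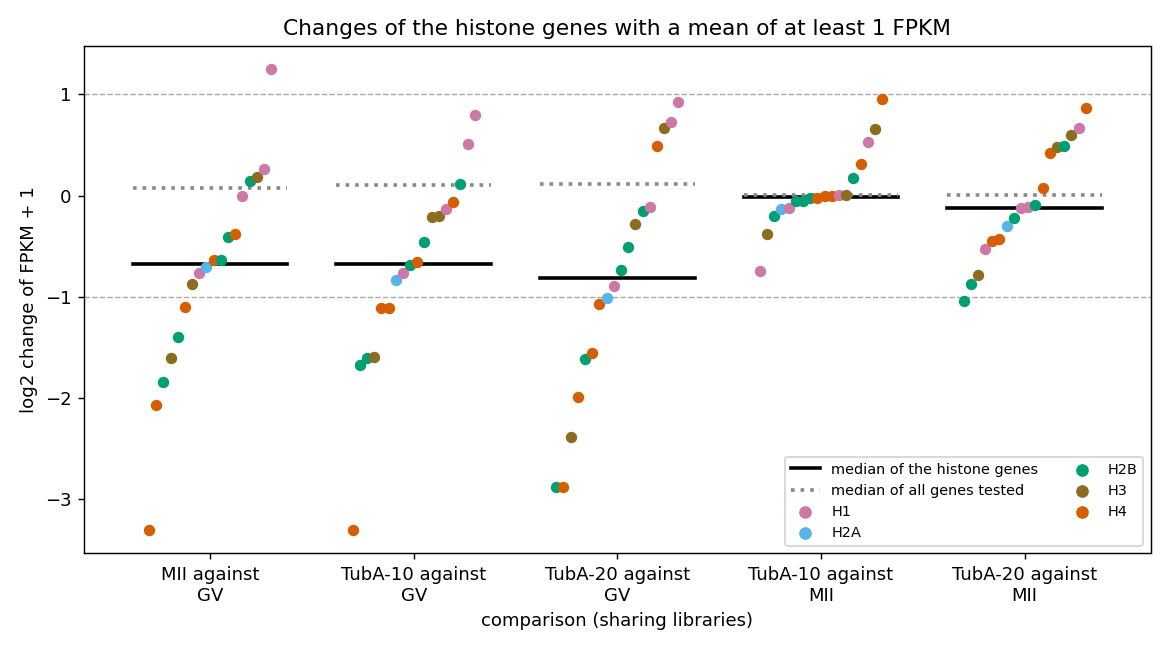
Log2 change of FPKM + 1 (vertical axis) of each of the 18 histone genes with a mean of at least 1 FPKM in the 5 comparisons, which share libraries; points are coloured by family, the solid bar is their median and the dotted bar the median of all 10199 genes tested. In the comparisons against GV the histone medians lie between -0.81 and -0.67, and in the comparisons against MII at -0.01 and -0.12; dashed lines mark 2-fold. Of the 18 genes 7 passed the limit only through GV, and over the other 11 the medians against GV are -0.37, -0.20 and -0.15.

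The MII oocytes were cultured for the same 12 h without the inhibitor and were taken only after release of the polar body. The paper reports that oocytes given the higher dose of TubA did not mature to this stage. Comparisons with the MII library thus hold a difference of meiotic stage and of selection as well as of inhibitor, at least for TubA-20. These parts cannot be told apart here. Few of the 18 genes passed 2-fold against MII, as few of all genes did. Of the 18, 7 had a mean of at least 1 FPKM only through GV. On the scale of FPKM + 1, a gene under 1 FPKM in both libraries compared could not pass. None of the 18 genes was more than 2-fold lower in TubA-10, where 0.235% of all genes were, and none was more than 2-fold higher, where 1.05% were. The median log2 change was -0.01. With a pseudocount of 0.1 FPKM in place of 1, Hist1h4i and Hist1h3f became more than 2-fold higher (log2 changes 1.83 and 1.35). The nearest to the limit were Hist1h4i, at 0.428 FPKM in MII and 1.78 in TubA-10 (log2 change 0.96), and Hist1h1a, at 71.5 and 42.3 FPKM (-0.74). In TubA-20 1 gene passed 2-fold, Hist1h2bk, listed at 0 in TubA-20 and at 1.05 FPKM in MII, where 5.22% of all genes were lower. None was more than 2-fold higher, where 0.608% were, and the median was -0.12. With a pseudocount of 0.1 FPKM Hist1h4d and Hist1h3f became more than 2-fold higher (1.14 and 1.24). With the libraries shifted to a median change of 0, Hist1h2bk no longer passed. The level of Hist1h2bc set the difference in the summed level of all 66 genes, which was 372 FPKM in MII and 235 in TubA-20. Without it the sums were 118 FPKM in MII and 96.2 in TubA-20.

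The number of fragments behind the low values may be small. FPKM hides this number, but among the 15 genes with a single transcript of 450 to 550 bases the lowest values above 0 were 0.488 FPKM (GV), 0.254 (MII), 0.267 (TubA-10) and 0.495 (TubA-20), and of the 9, 8, 8 and 6 such genes above 0, 5, 3, 5 and 4 lay within 0.1 of a whole multiple of the lowest. The lowest gene itself is counted each time, and other values can fall within 0.1 of a whole number by accident. These counts thus cannot show that the lowest value is 1 fragment. In units of the lowest value Hist1h4h was at 30.2 in GV and at 2.33, 2.23 and 2.30 in MII, TubA-10 and TubA-20, Hist1h2bk at 13.1, 4.13, 4.93 and 0, and Hist1h4a at 7.08, 4.21, 4.0 and 1.04. A value under 1 FPKM in such a gene may be that of a few fragments. From the most frequent ratio between low values of all genes (0.001 to 0.15 FPKM) the depth relative to GV was estimated at 1.64 (MII), 1.68 (TubA-10) and 0.895 (TubA-20). The read totals that the paper gives place TubA-20 somewhat above GV instead, with MII and TubA-10 above both. By either measure a gene listed at 0 in GV or TubA-20 had less chance to be seen than in the other pair.

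The annotated end of each gene was set beside its level, because oligo(dT) selection favours transcripts that run on to a poly(A) tail. Of the 22 genes with a stem-loop and 100 or more annotated bases after it, 20 were above 0 in at least 1 library (90.9%) and 10 had a mean of at least 1 FPKM. Of the 22 with a stem-loop and fewer than 100 bases after it, 10 were above 0 (45.5%) and 3 reached that mean. Among the 15 genes whose model ends within 5 bases of the stop codon, 4 were above 0 (26.7%). A polyadenylation signal lay in the annotated bases after the stem-loop in 16 genes, of which 14 were above 0 (87.5%). It lay in none of the other 28, of which 16 were above 0 (57.1%). Sequence past the annotated ends was not searched. The signal was held by 15 of the 22 genes with 100 or more bases after the stem-loop and by 1 of the 22 with fewer. The split by signal thus largely repeats the split by annotated length. The 3 highest members did not belong to the stem-loop groups, since Hist1h2bc has a spliced model without the stem-loop, the model of Hist1h1a ends inside it and that of Hist1h2aa at the stop codon. A longer model can be above 0 at a lower FPKM. Hist4h4, with 2863 bases, was at 0.0592 FPKM in MII, where the lowest value above 0 among short histone genes was 0.254. The group with fewer than 100 bases also holds the identical pairs Hist1h2ao and Hist1h2ap, Hist1h4m and Hist1h4n, and Hist2h2aa1 and Hist2h2aa2. Hist2h3c1 and Hist2h3c2 are in the other group. The annotated ends were drawn from transcripts of other samples. The parts of annotation, length and copies in these levels were not tested.

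**Figure D4:**
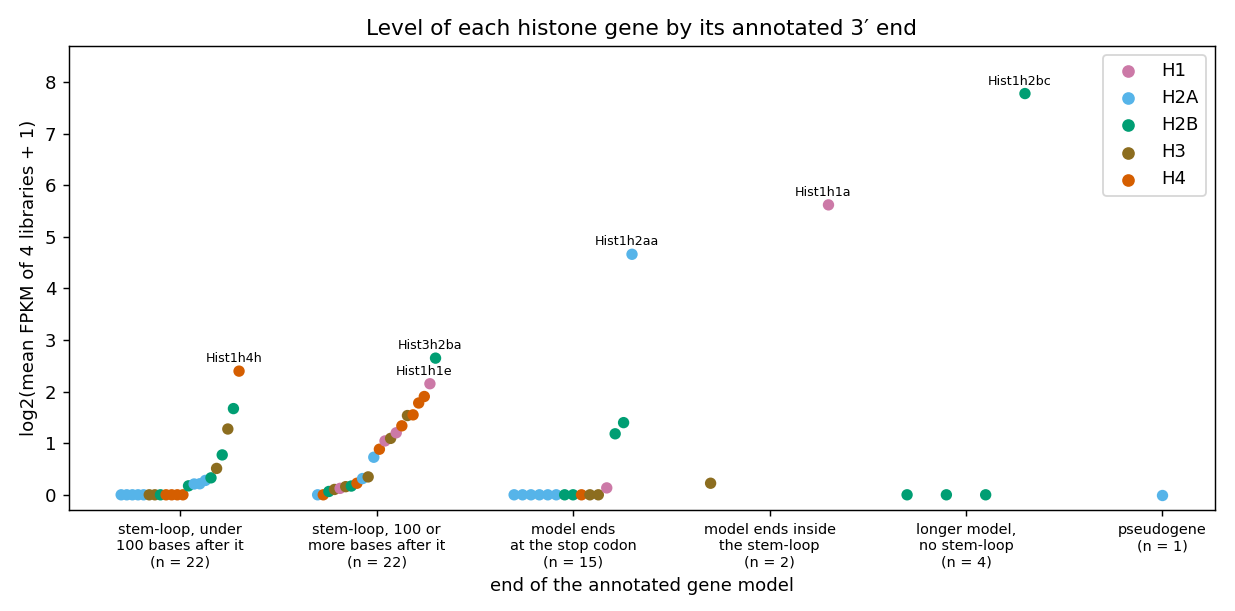
Mean level of each of the 66 histone genes over the 4 libraries, as log2(FPKM + 1), by the end of its annotated model; points are genes coloured by family, and genes with a mean above 3 FPKM are named. Genes with 100 or more bases after the stem-loop are mostly above 0 (20 of 22), those whose model ends at the stop codon mostly at 0 (11 of 15). A longer model can be above 0 at a lower FPKM.

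Near-identical copies were at 0 more often. Of the 10 genes whose coding sequence is identical to that of another member, 8 were at 0 in every library (80%), as were 15 of the 30 whose nearest copy was from 98% to under 100% identical and 5 of the 25 whose nearest copy was less similar (20%). Fragments that fit several copies can be split or dropped in the counting, and their part in these zeros was not tested. By position, on chromosome 13 the 17 genes between 21715763 and 21837530 were at 0 with the exception of Hist1h1b, and 15 of them had a nearest copy of at least 98% identity. Of the 5 genes at 22035164-22043676, 4 had a nearest copy of at least 98% identity and 4 were above 0. The 2 groups also differed in their annotated ends. The model ended within 5 bases of the stop codon in 9 of the 17 genes and in 1 of the 5. The block at 23531050-23934851 held 30 genes, of which 23 were above 0 and 13 had a mean of at least 1 FPKM, and it holds Hist1h2bc, Hist1h1a, Hist1h2aa and Hist1h4h. On chromosome 3, 6 of 10 genes were above 0 (96219865-96270132), and on chromosome 11 both were.

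**Figure D5:**
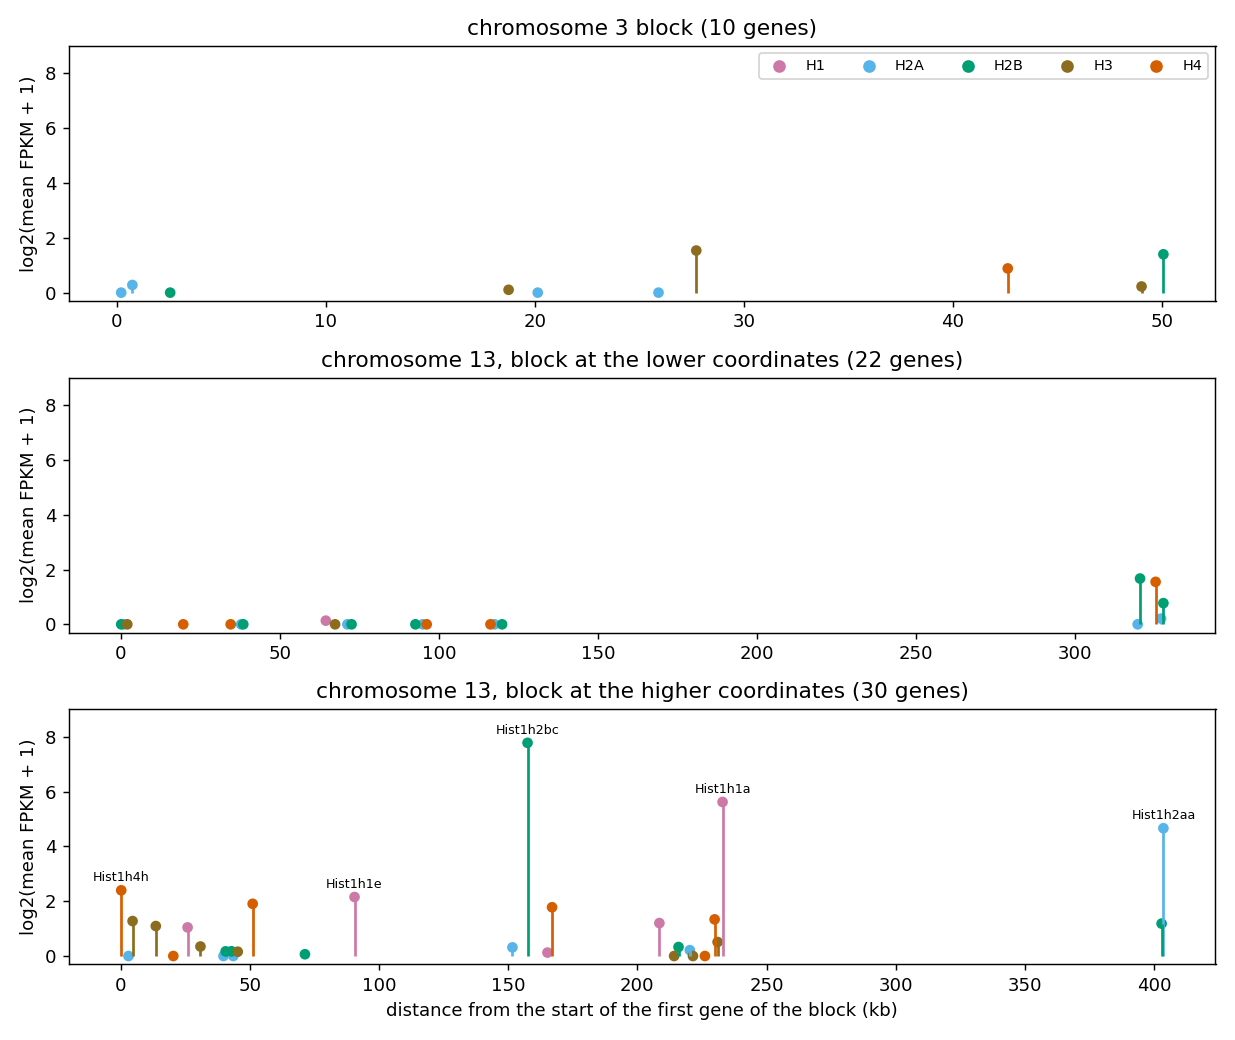
Mean level of each histone gene, as log2(FPKM + 1), along the 3 blocks with 10 or more genes, plotted by its distance in kb from the start of the first gene of the block; lines and points are genes, coloured by family. The high levels lie in the 30-gene block of chromosome 13, and the first 17 genes of the 22-gene block are at or near 0.

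Promoter letters differed between the families. Among the 60 members matched to a RefSeq promoter window, CCAAT was present on either strand in 51 (85%), beside 37.4% of all 32851 windows. It was present in every matched H1, H2A, H2B and H3 window and in 3 of the 12 H4 windows (25%). TATAAA was present in 35 members (58.3%), beside 13.6% of all windows. The octamer ATTTGCAT was found in 7 of 18 H2A and 6 of 14 H2B windows and in no H1, H3 or H4 window, beside 1.7% of all. No window was matched for Hist1h2bc.

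The genes that process and degrade histone mRNA were present in all libraries. Slbp, which encodes the stem-loop binding protein, was at 309.5 FPKM (GV), 687 (MII), 618 (TubA-10) and 552 (TubA-20), with log2 changes against GV of 1.15, 1.0 and 0.83. Lsm10, a subunit of the U7 snRNP, went the other way, at 517, 170.2, 229 and 81.2 FPKM, and its TubA-20 level was below its MII level by more than 2-fold (log2 change -1.06). Lsm11, the other subunit particular to the U7 snRNP, was at 4.19, 5.22, 4.13 and 6.71 FPKM, and Zfp473, a zinc finger protein of the U7 complex, at 6.91, 5.35, 4.86 and 5.30 FPKM. Neither of them passed 2-fold. Casp8ap2 (FLASH), which recruits the cleavage factors, was at 49.4, 110.1, 90.0 and 108 FPKM, and Npat, the activator of histone transcription, at 3.14, 6.10, 4.81 and 5.27 FPKM. Eri1, the exonuclease that trims the stem-loop, was level at 7.38, 6.95, 6.80 and 7.57 FPKM.

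Of the 19 genes of this list 18 had a mean of at least 1 FPKM; Tut4, a uridylyl transferase, did not (1.86, 0.344, 0.0432 and 0.505 FPKM). In MII 5 were more than 2-fold higher than in GV (Casp8ap2, Cpsf2, Slbp, Tut7 and Upf1) and 2 were lower (Hinfp and Lsm10), which is 27.8% and 11.1% of 18 beside 6.5% and 17.2% of all genes, with a list median of 0.42 beside 0.07 for all genes. In TubA-10 2 were lower (Lsm10 and Srrt) and none was higher, or 11.1% lower beside 11.5% of all genes, with a list median of 0.19. In TubA-20 6 were higher (Casp8ap2, Cpsf2, Mif4gd, Ncbp2, Tut7 and Upf1) and 4 were lower (Cpsf3, Hinfp, Lsm10 and Srrt), which is 33.3% and 22.2% beside 16.2% and 23.9% of all genes, with a list median of 0.58. Against MII, Lsm10 in TubA-20 was the only gene of the list past 2-fold, which is 5.56% lower beside 5.22% of all genes. In TubA-10 no gene of the list passed, where 0.235% of all genes were lower and 1.05% higher. Upf1, the helicase of histone mRNA decay, was at 24.8, 51.5, 40.0 and 72.1 FPKM, and Tut7, a uridylyl transferase, at 4.26, 10.1, 7.58 and 10.1 FPKM. Cpsf2 and Cpsf3, subunits of the cleavage factor, went opposite ways, with Cpsf2 at 7.57, 17.0, 13 and 18.2 FPKM and Cpsf3 at 34.2, 18.1, 25.8 and 9.83 FPKM. Hinfp, an activator of H4 transcription, was at 4.29, 1.45, 2.0 and 0.517 FPKM. Of the cap-binding partners, Srrt was at 28.6, 14.8, 13.2 and 10.7 FPKM and Ncbp2 at 44.1, 66.7, 84.7 and 106 FPKM, while Mif4gd, an SLBP partner in translation, was at 19.5, 30.0, 34.9 and 48.3 FPKM.

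Replacement histones ranged from above to well below the leading clustered genes. H1foo, H3f3a and H3f3b had higher mean levels than Hist1h2bc, and the other 9 of the 12 had lower ones. The oocyte linker histone H1foo was at 4724 FPKM (GV), 7977 (MII), 7352 (TubA-10) and 8806 (TubA-20), beside 29.5 to 71.5 FPKM for Hist1h1a. The H3.3 genes H3f3a (406, 627, 688 and 876 FPKM) and H3f3b (515, 767, 753 and 863 FPKM) were lowest in GV and highest in TubA-20. The H2A variants were highest in GV, as the clustered H2A sum was. H2afv was at 209, 29.9, 39.3 and 32.7 FPKM, H2afx at 123, 33.3, 46.9 and 34.2, H2afj at 128, 32.7, 38.3 and 20.6, and H2afz at 98.8, 62.4, 68.5 and 51.9. H1fx was at 10.2, 3.01, 1.87 and 1.88 FPKM, whereas H1f0 (23.7, 22.5, 18.6 and 26.2), H2afy (11.5, 10.9, 8.34 and 11.2) and Cenpa, the centromeric H3 (88.8, 97, 82.6 and 127), stayed within 2-fold. Of the 12 genes, 4 were more than 2-fold lower than in GV in each cultured library (H1fx, H2afj, H2afv and H2afx), and H3f3a was higher in TubA-20. The 4 lower genes are 33.3% of the list, beside 17.2% (MII), 11.5% (TubA-10) and 23.9% (TubA-20) of all genes, and 16.2% of all genes were higher in TubA-20. The list medians were -0.28, -0.38 and -0.43 in the order MII, TubA-10, TubA-20, beside 0.07, 0.10 and 0.12 for all genes. None of the 12 passed 2-fold between MII and either TubA library. Of all genes, 0.235% were lower and 1.05% higher in TubA-10 than in MII, and 5.22% and 0.608% in TubA-20. Levels below that of GV were thus found in culture both among H2A variants and in the sums of the clustered H2A, H3 and H4 genes. Most of that H2A sum was Hist1h2aa. The H3.3 genes stood above GV.

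The oocyte label was checked against markers. All 10 oocyte genes listed (Zp1, Zp2, Zp3, Gdf9, Bmp15, Ooep, Nlrp5, Oosp1, H1foo and Figla) were above 1 FPKM in every library, and their levels summed to between 14812 and 22081 FPKM. The 12 cumulus and granulosa genes summed to 25.0 FPKM (GV), 20.8 (MII), 19.8 (TubA-10) and 22.8 (TubA-20), most of it from Nr5a2 and Cyp19a1, and Foxl2 was at 0 in all. Of these 12 genes, 6 were highest in GV (Amh, Fshr, Inha, Inhba, Slc38a3 and Star), where GV was the highest library for 36.8% of all genes above 0. Of these 6, Inha alone was above 1 FPKM in GV, and the others lay between 0.127 (Amh) and 0.956 FPKM (Inhba). Another 4 of the 12 were highest in TubA-20 (Cyp19a1, Has2, Ptx3 and Tnfaip6) and Nr5a2 was highest in TubA-10. Cyp19a1 was at 6.14, 8.6, 7.42 and 10.3 FPKM in the order GV, MII, TubA-10, TubA-20. Inha was at 7.5 FPKM in GV and at 0.314, 0.310 and 0.239 FPKM in MII, TubA-10 and TubA-20. The part of such cells in the histone values of GV was not tested. The 6 blood genes were at or under 0.0347 FPKM, and 4 of them, the globin genes, were at 0 in every library.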

How the data were processed

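Transcripts of pooled oocytes were measured in 4 libraries of oligo(dT)-selected RNA, prepared as stranded paired-end libraries. The deposited values are FPKM per gene, made by the authors with STAR (version 2.5.0), Cufflinks and Cuffdiff (version 2.2.1) on mm10; the rows are versioned Ensembl identifiers, and read counts and total depth were not analysed here. The gene model is not certain, so that the GENCODE M21 models used here for ends and copies may differ from those behind the values.

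Symbols were found for 21794 of 21959 entries, entries of 1 symbol were added, and 21957 genes remained. Changes were log2((FPKM + 1)/(FPKM + 1)), and genes with a mean of at least 1 FPKM were tested against the 2-fold limit (Python 3.11.15, pandas 2.3.3). With 1 library per condition no test was possible. The counting and the stem-loop search were tested on simulated data. Named genes were the 6 highest of each family by mean FPKM and every member past 2-fold. In the list of processing genes, Zcchc6 and Zcchc11 were read under their later symbols Tut7 and Tut4. The members and lists were chosen with earlier results of these data known. There were 10 other settings, and 1 more (the mean over the cultured libraries) was chosen after seeing the data. The median gene at 1 FPKM or more in every library changed by 0.13, 0.14 and 0.19 on the log2 scale in MII, TubA-10 and TubA-20 against GV, and changes are not corrected for it unless stated.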

Additional observations from a re-analysis of the deposited data

How the results depend on the processing

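No median log2 change passed 2-fold under any alternative tried. With no filter on low values the median over all 66 genes was 0 in each of the 5 comparisons, where 29 genes are at 0 throughout. The other alternatives kept the direction of the medians, except that of TubA-10 against MII, which was -0.01 and became 0.0165 with equal Gapdh. The number of genes more than 2-fold lower varied more. With a mean of at least 5 FPKM, 4 genes remained to be counted, and 1 was lower in MII and 1 in TubA-10 against GV, 2 in TubA-20 against GV and 0 in TubA-20 against MII, since fewer genes were tested. With a mean of at least 1 FPKM over the cultured libraries, the counts against GV were 1, 1 and 3 and 0 genes were lower in TubA-20 than in MII, since Hist1h2bk was left out. For TubA-20 against MII, where 1 gene was lower, the count was 2 with a pseudocount of 0.1 FPKM, 3 with 0.01, 0 with the median change set to 0, 2 after scaling to equal FPKM sums and 2 after scaling to equal Gapdh; the scalings move Hist1h2bc or Hist1h2bk across the limit and the pseudocounts move genes at or near 0. Against MII, where no gene was more than 2-fold higher, 2 were with either pseudocount in each TubA library, and 1 was in TubA-10 with equal Gapdh. Against GV, 1 gene (Hist1h1e) was higher in each TubA library with either pseudocount, and in TubA-20 with equal upper quartiles. No paired analysis was possible because each condition had 1 library. The depth limits what can be said of genes under 1 FPKM, and with no replicates no difference could be set against the spread between samples.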
